A study of Mus musculus with 30 samples.

Results

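The rodent placenta draws many of its secreted hormones, proteases and surface glycoproteins from clusters of tandem gene copies, and 62 genes of 4 such families were followed here through the chemical reprogramming of mouse fibroblasts into pluripotent cells. The genes were taken by symbol from a table of 35275 entries. They comprise 25 prolactin family genes numbered Prl2 to Prl8, 13 pregnancy-specific glycoprotein genes (Psg), 15 genes of the carcinoembryonic antigen-related adhesion molecules (Ceacam) and 9 placental cathepsins (Cts3, Cts6, Cts7, Cts8, Ctsj, Ctsm, Ctsq, Ctsr and Ctsll3). All 62 symbols had an entry in the RefSeq annotation of GRCm38.p6: the prolactin and cathepsin members lie on chromosome 13, and the Psg and Ceacam members on chromosome 7.

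Bulk RNA was sequenced in 14 libraries, 1 per group, so the spread between replicate cultures is not known and no test was run. Cells passed through 3 stages of culture: they were replated on day 12, moved to the stage II medium on day 16 and to the stage III medium on day 28. The libraries were from embryonic fibroblasts (MEF) of E13.5 embryos, the starting cells; an established line of extraembryonic-endoderm-like (XEN-like) cells held in stage I medium, given in the labels as VC6TFAE with 20 ng/ml bFGF; stage II day 12 cells of the N2B27-SII condition, which grew on mitomycin C-treated fibroblast feeders; stage II day 12 cells of the FBS/KSR-SII condition; and a stage II day 12 fraction, OG+PDGFRAlow/-PECAM-, isolated by flow cytometry. Stage III was sampled at day 4 with the Opt. VPA treatment (valproic acid, a histone deacetylase inhibitor), at day 4 without it, and at days 6, 15 and 21. The end points were 1 chemically induced pluripotent line (CiPSC) and embryonic stem cells (ESC) from E3.5 embryos, both kept on fibroblast feeders with 2 kinase inhibitors and LIF. A further pair was sorted at stage II day 12 for the presence (pZscan4c-Em+) or absence (pZscan4c-Em-) of an Emerald reporter driven by the promoter of Zscan4c, a gene of the 2-cell embryo; these cells descended from XEN-like cells that had been derived from reporter embryonic stem cells. The strain was C57BL/6J-Tg(GOFGFP)11Imeg/RbrcxICR throughout, except for ESC (ICR x ICR) and the reporter pair (129S6/SvEvTac x C57BL/6Ncr). Which stage II medium preceded the stage III libraries, or the OG+PDGFRAlow/-PECAM- sort, is not stated in the labels.

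As background, members of the rodent prolactin family are made mostly by trophoblast giant cells and spongiotrophoblast; placental lactogens act through the prolactin receptor, while proliferins and most of the other members do not. Placental cathepsins are lysosomal cysteine proteases that arose in rodents from a copy of the cathepsin L gene. Psg proteins are secreted glycoproteins of the immunoglobulin superfamily, and Ceacam proteins are their relatives, several of which are bound to the cell surface outside the placenta as well.

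The values are deposited FPKM, that is, reads scaled by transcript length and by library total, which can be compared between genes. Totals ran from 6601290 reads (day 4 control) to 15294927 (FBS/KSR). Whole reads behind the values could be recovered, and every interval given here is an exact 95% binomial interval on those reads; it covers counting error and not the spread between cultures. A member at 1 FPKM or more in either library was called higher or lower once it differed by 2-fold or more on log2(FPKM + 1); a member at 1 FPKM or more against 0 reads meets that rule by construction. Members and all entries were measured in a comparison when they had 1 FPKM or more in either library, and the shares given for all entries are of those measured. Fold changes against a library with 0 reads are given as at least the ratio with 3 reads put in that library. The other count is taken as it stands, so this value is not the lower limit of an exact interval, which can be smaller. For the cathepsin sum of OG+PDGFRAlow/-PECAM- over N2B27 the value was 969 and the exact lower limit 788. Copies in these families resemble each other, and the sources used here do not say how reads that align to several copies were treated, so family sums stand beside single genes. In bulk RNA, fewer cells of a type and less RNA per cell cannot be told apart.

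The families were near absent in fibroblasts, were higher in stages II and III and were near absent again in the pluripotent lines. Summed over all 62 members, the level was 0.863 FPKM in MEF, 54.6 in XEN-like cells, 92.0 in the N2B27 library, 614 in the FBS/KSR library and 384 in the OG+PDGFRAlow/-PECAM- sort. In stage III it was 27.9 FPKM at day 4 with Opt. VPA, 69.5 in the day 4 control, 837 at day 6, 668 at day 15 and 94.1 at day 21. The CiPSC line stood at 8.07 FPKM and ESC at 9.97 FPKM, and the reporter pair at 54.1 FPKM in pZscan4c-Em+ and 18.2 FPKM in pZscan4c-Em-. At its highest, on day 6, the members with recovered reads took 0.0868% of the library (8278 reads, interval 0.0850% to 0.0887%). The number of members at 1 FPKM or more was 0 in MEF, 3 in XEN-like cells, 11 in the N2B27 library, 29 in the FBS/KSR library, 14 in the OG+PDGFRAlow/-PECAM- sort, 19 on each of days 6 and 15, and 15 on day 21. Over all libraries, 11 members reached 20 FPKM, 25 peaked between 1 and 20 FPKM, 20 stayed under 1 FPKM and 6 had no read (Prl3c1, Cts6, Ceacam5, Ceacam11, Ceacam12 and Ceacam14).

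**Figure D1:**
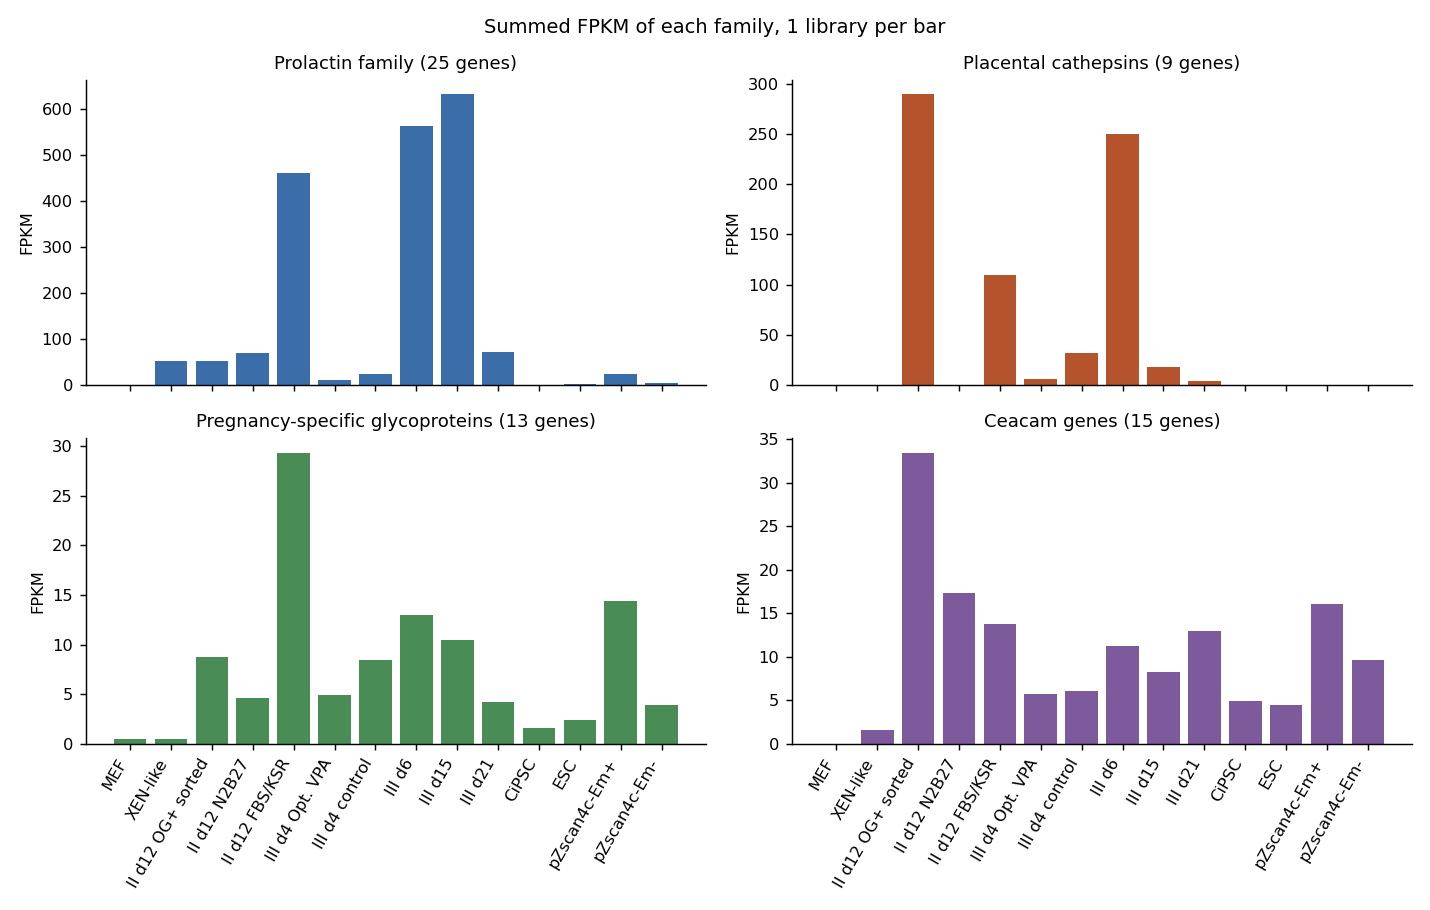
Summed FPKM of the 4 families in each of the 14 libraries, 1 bar per library with no error bar because each group has 1 library. The prolactin sum passes 400 FPKM only in the FBS/KSR, day 6 and day 15 libraries, and the cathepsin sum passes 100 FPKM only in the OG+PDGFRAlow/-PECAM-, FBS/KSR and day 6 libraries.

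The prolactin sum was 0.422 FPKM in MEF, 52.4 in XEN-like cells, 70.1 in the N2B27 library, 461 in the FBS/KSR library and 52.1 in the OG+PDGFRAlow/-PECAM- sort. It was 11.0 FPKM at day 4 with Opt. VPA, 23.4 in the day 4 control, 562 at day 6, 631 at day 15 and 72.7 at day 21. These sums hide a change in which member held most of the deposited level, as the following genes show.

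Proliferins are angiogenic prolactin relatives, encoded by Prl2c2, Prl2c3 and Prl2c5 at the near end of chromosome 13 (chr13:12790816-13191930 from the first to the last), apart from the main cluster at chr13:27094189-28151595. Prl2c2 was at 0 in MEF, 35.6 FPKM in XEN-like cells, 43.1 in the N2B27 library, 19.8 in the FBS/KSR library and 0 in the OG+PDGFRAlow/-PECAM- sort; in stage III it was 8.54 with Opt. VPA, 14.7 in the control, 1.88 at day 6, 7.07 at day 15 and 2.35 at day 21. It had no read in the CiPSC line or ESC, and stood at 0.16 in pZscan4c-Em+ and 2.91 in pZscan4c-Em-. Prl2c2 was thus highest early, in the XEN-like and N2B27 libraries. Prl2c3 was at 0.12 FPKM in MEF, 16.2 in XEN-like cells, 13.9 in the N2B27 library, 23.0 in the FBS/KSR library and 0.12 in the sort; it was 0.84 with Opt. VPA, 4.46 in the control, 3.21 at day 6, 20.2 at day 15 and 3.02 at day 21. Its level was 0 in the CiPSC line and ESC, 0.16 in pZscan4c-Em+ and 0.68 in pZscan4c-Em-. Prl2c5, by contrast, had no read in MEF, XEN-like cells or the N2B27 library, but 72.6 FPKM in the FBS/KSR library and 14.9 in the sort; it was 0.16 with Opt. VPA, 0.83 in the control, 178 at day 6, 134 at day 15 and 15.4 at day 21. It had no read in the CiPSC line, ESC or pZscan4c-Em-, and 1 read in pZscan4c-Em+. The deposited values therefore differed between the copies. The N2B27 library held 271 reads of Prl2c2, 89 of Prl2c3 and 0 of Prl2c5, whereas day 6 held 15, 26 and 1239 in that order. Whether reads shared by copies were assigned to the right one cannot be checked from these values. The 3 genes together were at 51.8 FPKM in XEN-like cells, 56.9 in the N2B27 library, 115 in the FBS/KSR library, 183 at day 6 and 161 at day 15. From lowest to highest level over these libraries, the sum differed less than each copy did. Between XEN-like cells and the FBS/KSR library, the sum differed more than Prl2c2 (35.6 and 19.8 FPKM) or Prl2c3 (16.2 and 23.0). In every other library the sum was lower. It was 15.1 FPKM in the sort, 9.54 with Opt. VPA, 20.0 in the control and 20.8 at day 21. It was 0.12 in MEF, 0 in the CiPSC line and ESC, 0.51 in pZscan4c-Em+ and 3.59 in pZscan4c-Em-.

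Prl7a1, which encodes prolactin-like protein E, was the most abundant member in any library and followed the profile of Prl2c5. It had no read in MEF, XEN-like cells or the N2B27 library, and stood at 177 FPKM in the FBS/KSR library and 26.3 in the OG+PDGFRAlow/-PECAM- sort. In stage III it had 1 read with Opt. VPA and none in the control, then 328 FPKM at day 6, 420.5 at day 15 and 38.0 at day 21; the CiPSC line, ESC and both reporter libraries had none. At day 15 it ranked at position 212 among the 13357 entries at 1 FPKM or more, and it made up 58.3% of the prolactin sum at day 6 and 66.6% at day 15.

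**Figure D2:**
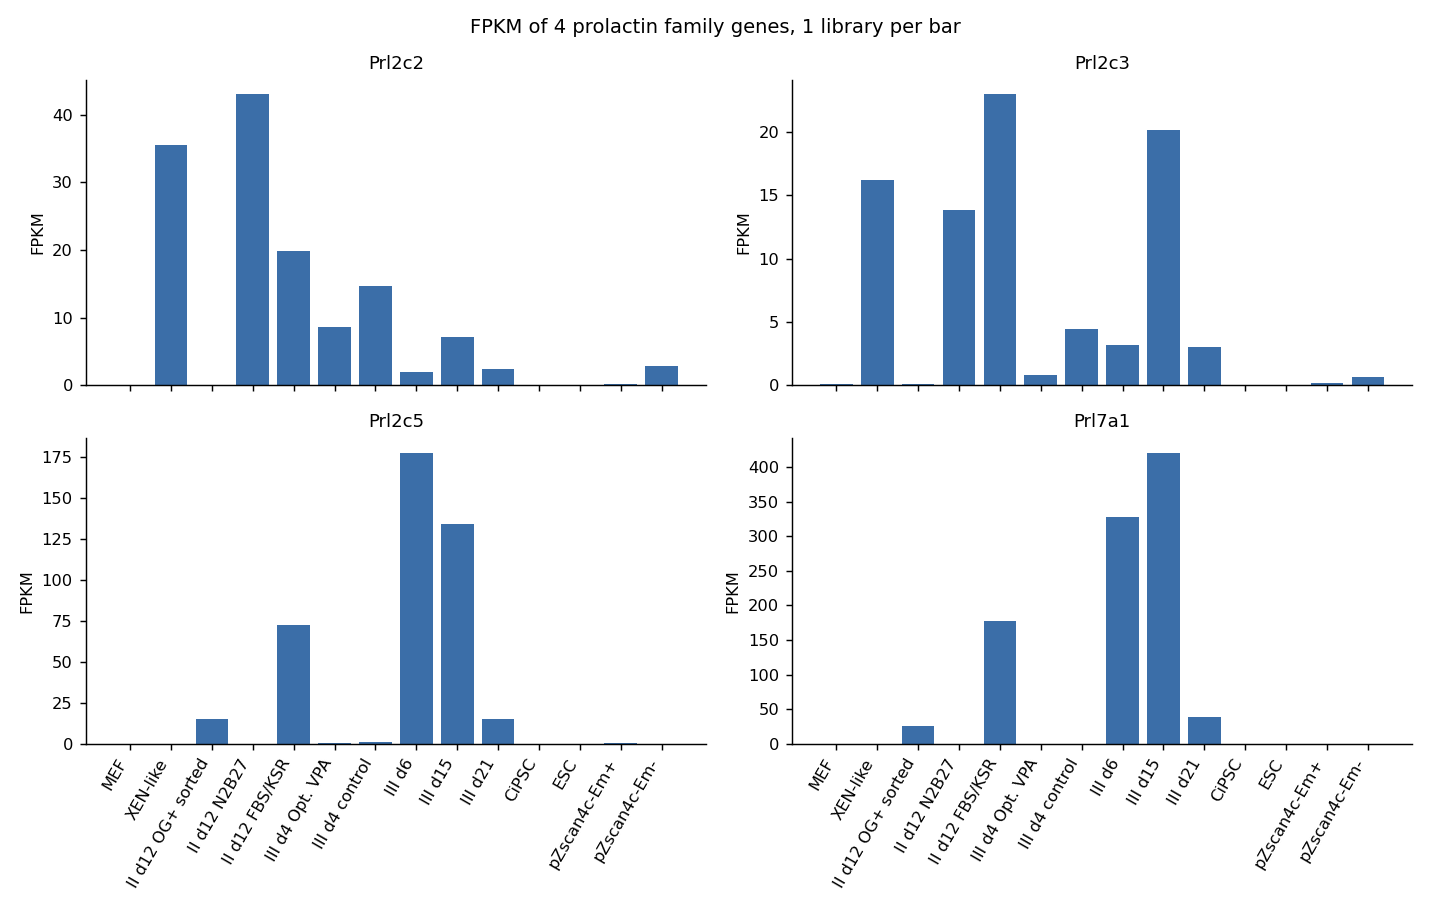
FPKM of the 3 proliferin genes and Prl7a1 in each library, 1 bar per library on a scale of its own for each gene. Prl2c2 is highest in the XEN-like and N2B27 libraries, where Prl2c5 and Prl7a1 have no read, and Prl2c5 and Prl7a1 peak at days 6 and 15.

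The upstream sequences of these genes are shown because near-identical windows sat before genes with different profiles. Of the 62 members, 53 had an upstream sequence in the RefSeq promoter table for GRCm38.p6; Prl2c2 was among the 9 without one. Each window is the 250 bases before the start site of that table, 5′ to 3′ on the gene's strand, and capitals mark motif matches on either strand. For Prl2c3 and Prl2c5 that start site lies inside the annotated gene, so their windows overlap its first bases. The Prl7d1 and Prl7a1 windows end just before their annotated genes. The letters searched were AGATAA and, apart from it, TGATAA for GATA factors. For AP-1 the motif was TGANTCA. For AP-2 it was GCCNNNGGC, and for TEAD factors it was GGAATG. The windows are Prl2c3 at chr13:12800080-12800329 (minus strand), Prl2c5 at chr13:13182466-13182715 (plus strand), Prl7d1 at chr13:27716738-27716987 (minus strand) and Prl7a1 at chr13:27642494-27642743 (minus strand).
Prl2c3: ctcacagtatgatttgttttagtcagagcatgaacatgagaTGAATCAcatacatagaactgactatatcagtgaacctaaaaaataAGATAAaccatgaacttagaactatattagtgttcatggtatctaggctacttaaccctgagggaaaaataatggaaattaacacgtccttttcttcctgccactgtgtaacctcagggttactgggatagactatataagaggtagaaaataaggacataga
Prl2c5: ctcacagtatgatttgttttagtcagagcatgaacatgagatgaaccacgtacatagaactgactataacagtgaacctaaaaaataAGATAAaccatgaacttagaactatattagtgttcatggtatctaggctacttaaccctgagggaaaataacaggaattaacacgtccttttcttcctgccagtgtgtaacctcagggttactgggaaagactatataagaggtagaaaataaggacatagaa
Prl7d1: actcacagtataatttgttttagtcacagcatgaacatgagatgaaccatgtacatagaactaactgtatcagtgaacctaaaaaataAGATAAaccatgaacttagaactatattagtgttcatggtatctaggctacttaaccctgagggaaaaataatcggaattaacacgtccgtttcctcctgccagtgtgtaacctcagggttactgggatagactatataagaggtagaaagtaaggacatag
Prl7a1: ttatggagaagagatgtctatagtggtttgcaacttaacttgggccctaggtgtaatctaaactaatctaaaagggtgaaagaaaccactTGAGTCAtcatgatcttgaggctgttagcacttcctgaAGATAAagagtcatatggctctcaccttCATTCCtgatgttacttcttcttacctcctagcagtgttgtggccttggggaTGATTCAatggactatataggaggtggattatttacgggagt

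The Prl2c3 and Prl2c5 windows were 96.0% identical over 251 aligned columns and differed by 8 substitutions (T46C, A50G, T69A, T160C, G161A, A163G, C191G and T216A, counted from the outermost printed base of Prl2c3) and 2 gap columns. Prl7d1, a gene of the main cluster, was 94.0% identical to Prl2c3, with 13 substitutions and 2 gap columns. All of these windows held AGATAA, starting 163 bases before the start site in Prl2c3 and Prl2c5 and 162 bases before it in Prl7d1. The AP-1 match of Prl2c3, 209 bases before the start, was not in the Prl2c5 or Prl7d1 windows, and T46C, shared by both, lies in it. Prl7a1, whose levels ran with those of Prl2c5, had a window only 55.1% identical to that of Prl2c5, with AGATAA, 2 AP-1 matches and 1 TEAD match. AGATAA was found in 10.3% of all 27025 promoter windows of this length and in 28.3% of the 53 member windows, TGATAA in 8.16% and 28.3%, TGANTCA in 6.87% and 20.8%, GCCNNNGGC in 13.6% and 7.55%, and GGAATG in 12.6% and 15.1%. The member windows are copies of each other and not independent, and a match says only that these letters are present.

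Placental lactogen I, the luteotropic hormone of early giant cells, is encoded by the copies Prl3d1, Prl3d2 and Prl3d3. Prl3d1 had no read in MEF or XEN-like cells, 0.31 FPKM in the N2B27 library, 41.1 in the FBS/KSR library and 2.37 in the OG+PDGFRAlow/-PECAM- sort; it had none in either day 4 library, then 15.1 at day 6, 14.1 at day 15 and 2.02 at day 21. It was at 0 in the CiPSC line, ESC and both reporter libraries. Prl3d2 and Prl3d3 peaked at day 6, at 11.7 and 7.501 FPKM, and their promoter windows were 96.5% identical. Placental lactogen II, the hormone of later gestation encoded by Prl3b1, reached only 2.17 FPKM, in the FBS/KSR library.

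Prl7d1, which encodes the anti-angiogenic proliferin-related protein, was at 64.1 FPKM in the FBS/KSR library, 1.78 in the OG+PDGFRAlow/-PECAM- sort, 3.87 at day 6, 3.30 at day 15, 0.41 at day 21 and 0.46 in pZscan4c-Em+, and had no read in the other 8 libraries. Its level in the FBS/KSR library was close to that of Prl2c5, but at day 6 it was far below it. Prl2a1, which encodes prolactin-like protein M, was at 0.15 FPKM in the N2B27 library, 32.3 in the FBS/KSR library, 1.08 in the sort, 0.17 in the day 4 control, 7.36 at day 6, 20.2 at day 15 and 6.78 at day 21, with no read in the other 7. Prl8a1 was the only prolactin member with its highest level in pZscan4c-Em+. It stood at 22.0 FPKM in pZscan4c-Em+ and 0.82 in pZscan4c-Em-, was next highest in ESC at 3.15, and lay between 0.08 and 2.50 in the other 11 libraries. The remaining prolactin members above 1 FPKM were Prl8a9 (highest 6.59, N2B27 library), Prl6a1 (1.35, N2B27 library), and Prl4a1, Prl5a1 and Prl2b1 (6.27, 2.59 and 1.48, all in the FBS/KSR library). Prl8a2, which encodes decidual prolactin-related protein, was at 0.165 FPKM at its highest, from 1 read in the day 4 control.

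Of the placental cathepsins that passed 1 FPKM, Ctsll3 was highest in the OG+PDGFRAlow/-PECAM- sort and the other 4 in the FBS/KSR library. Ctsll3 had no read in MEF, XEN-like cells or the N2B27 library, 0.49 FPKM in the FBS/KSR library and 289 in the OG+PDGFRAlow/-PECAM- sort; it was 6.34 with Opt. VPA, 31.6 in the control, 247 at day 6, 9.60 at day 15 and 1.29 at day 21. The CiPSC line, ESC and both reporter libraries had no read of it. Ctsj, a trophoblast cathepsin, was at 88.4 FPKM in the FBS/KSR library, 0.42 in the sort, 1.73 at day 6, 6.72 at day 15 and 2.30 at day 21, with no read in the other 9 libraries. Ctsll3 made up 99.7% of the cathepsin sum in the sort and 99.0% at day 6, whereas Ctsj made up 80.5% of it in the FBS/KSR library. Ctsq, known from giant cells lining the maternal blood spaces of the labyrinth, peaked at 15.7 FPKM in the FBS/KSR library, and Ctsr (3.21) and Cts7 (1.23) peaked there too. Cts3, Cts8 and Ctsm stayed under 1 FPKM. Ctsll3 and Ctsj lie in 1 cluster on chromosome 13, and their upstream windows are printed for comparison, Ctsll3 at chr13:60802845-60803094 and Ctsj at chr13:61005926-61006175, both on the minus strand.
Ctsll3: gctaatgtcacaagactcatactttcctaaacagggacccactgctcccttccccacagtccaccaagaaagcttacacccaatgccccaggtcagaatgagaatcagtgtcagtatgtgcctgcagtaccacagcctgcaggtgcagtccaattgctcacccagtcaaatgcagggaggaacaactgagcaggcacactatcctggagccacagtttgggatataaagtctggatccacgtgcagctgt
Ctsj: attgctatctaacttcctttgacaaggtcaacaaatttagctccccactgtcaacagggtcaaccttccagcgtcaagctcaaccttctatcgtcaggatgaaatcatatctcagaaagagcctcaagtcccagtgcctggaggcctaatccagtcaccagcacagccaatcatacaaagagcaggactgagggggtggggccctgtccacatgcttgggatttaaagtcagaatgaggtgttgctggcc

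These windows were 58.1% identical, and neither held any of the 5 motifs searched, which says only that those letters are not in these 250 bases.

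The highest Psg sum was 29.3 FPKM, in the FBS/KSR library, where the prolactin sum was 461. Psg29 had 17.0 FPKM in the FBS/KSR library, from 1418 reads, 0.52 at day 6, 1.19 at day 15 and 0.20 at day 21, with 1 read in the day 4 control and none in the other 9 libraries. Psg16 was spread more evenly: it was at 10.5 FPKM in pZscan4c-Em+ and 1.73 in pZscan4c-Em-, and between 0.23 and 3.48 in the other 12. Psg23 was highest in the day 4 control, at 7.16 FPKM, against 3.76 with Opt. VPA, 4.14 at day 6 and 3.85 in pZscan4c-Em+. The other members above 1 FPKM were Psg22 (highest 4.20), Psg17 (2.43) and Psg19 (1.17) in the FBS/KSR library, and Psg18 (3.67) at day 6. Of the 8 Ceacam genes that lie in or beside the Psg cluster and are known from trophoblast, only Ceacam15 (7.94 FPKM) and Ceacam9 (2.38) passed 1 FPKM, both in the FBS/KSR library. Ceacam1, an adhesion receptor of many epithelia, was at 29.1 FPKM in the OG+PDGFRAlow/-PECAM- sort, 4.16 in the N2B27 library, 1.70 in the FBS/KSR library, 1.43 in XEN-like cells and 0 in MEF. In stage III it was 4.47 with Opt. VPA, 3.73 in the control, 6.64 at day 6, 3.30 at day 15 and 1.31 at day 21, against 0.30 in the CiPSC line and 0.55 in ESC; the reporter pair had 3.58 (pZscan4c-Em+) and 4.51 (pZscan4c-Em-). Ceacam10 peaked at 10.2 in the N2B27 library, Ceacam19 at 4.95 in pZscan4c-Em+, Ceacam16 at 2.97 in pZscan4c-Em-, Ceacam20 at 2.01 in the sort and Ceacam2 at 1.49 on day 6.

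**Figure D3:**
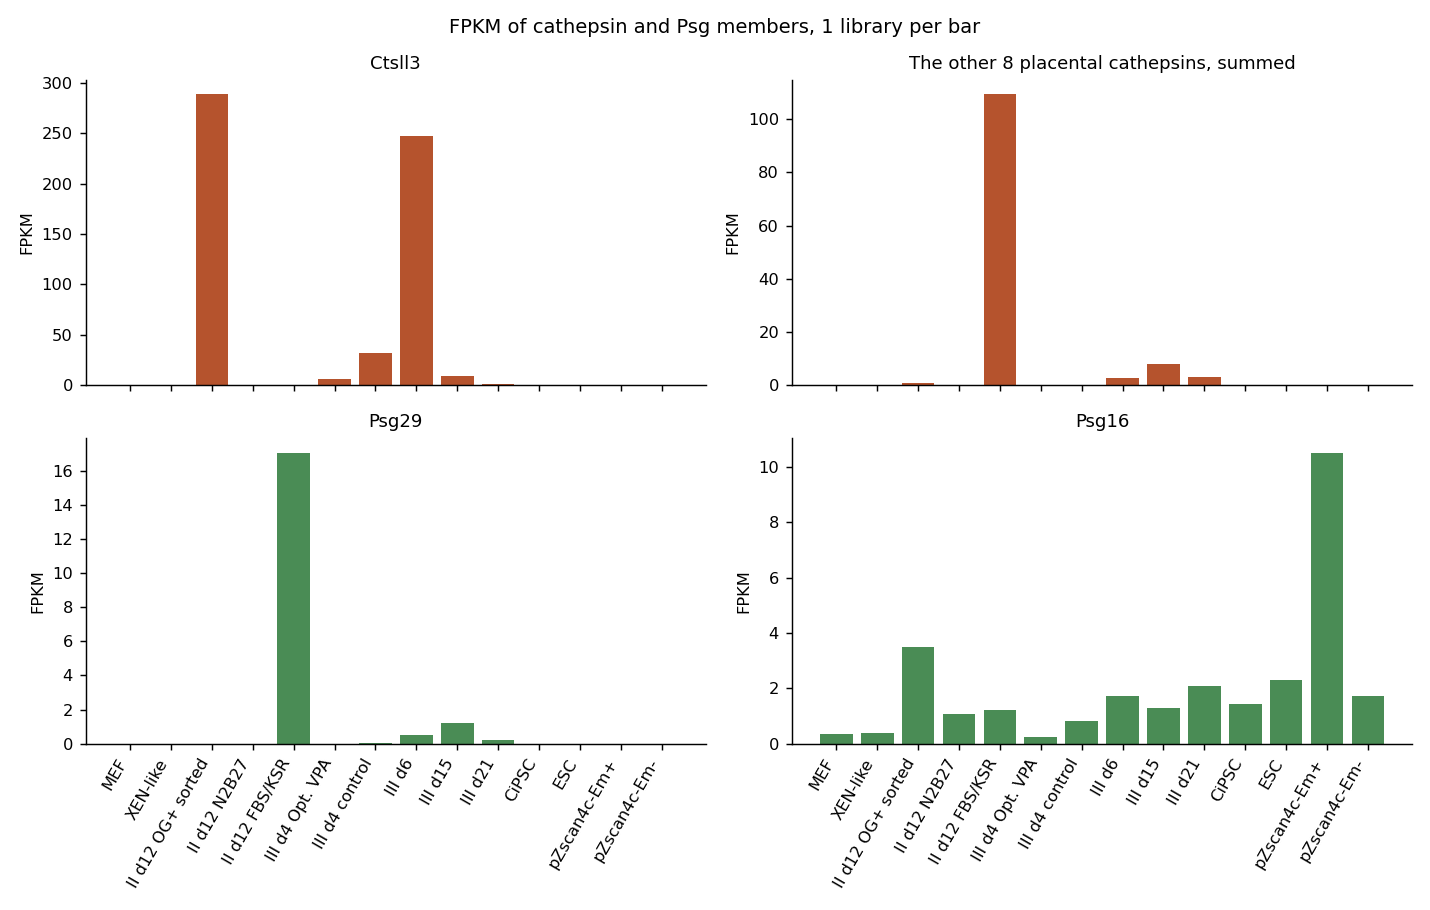
FPKM of Ctsll3, of the other 8 placental cathepsins summed, of Psg29 and of Psg16 in each library, 1 bar per library on separate scales. Ctsll3 is high in the OG+PDGFRAlow/-PECAM- sort and at day 6, the other cathepsins and Psg29 in the FBS/KSR library, and Psg16 in pZscan4c-Em+.

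Between XEN-like cells and MEF, the members called higher were 2 of the 3 proliferins and Ceacam1. Of the 62 members only these 3 were at 1 FPKM or more in either library, so 3 of 3 measured were higher and 0 lower by the 2-fold rule, against 18.8% higher and 17.5% lower of all 13360 entries measured. Prl2c2 had 252 reads in XEN-like cells and 0 in MEF, at least 96.9-fold higher, and Prl2c3 had 117 reads against 1 (135-fold, 23.75 to 5375). Ceacam1 was at 1.43 FPKM in XEN-like cells and 0 in MEF; Prl2c5 and the cathepsins had no read in either library.

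From XEN-like cells to stage II, the N2B27 library had 7 of 11 measured members higher and 0 lower, against 17.7% higher and 8.56% lower of all entries, and the FBS/KSR library had 24 of 29 higher and 0 lower, against 16.1% and 10.3%. Both comparisons share the XEN-like library. On the log2(FPKM + 1) scale the largest of the 7 were Ceacam10, at 10.2 FPKM in the N2B27 library and 0.11 in XEN-like cells (89.9-fold, 15.7 to 3596), and Prl8a9, at 6.59 FPKM and 0 (at least 17.2-fold). Psg23 was next, at 2.92 FPKM and 0.11 (48 and 2 reads, 26.98-fold, 7.07 to 229). In the FBS/KSR library Prl7a1 was at least 460-fold, Ctsj at least 319-fold, Psg29 at least 262-fold and Prl2c5 at least 150-fold higher than in XEN-like cells, where each had 0 reads. The sums of the prolactin, Psg and Ceacam families were 8.79-fold, 57.8-fold and 8.41-fold higher in the FBS/KSR library than in XEN-like cells as FPKM. As shares of the library's reads, where longer transcripts weigh more, the Psg family took 0.0116% in FBS/KSR and 0.000106% in XEN-like cells (1780 and 9 reads), a larger difference, and the Ceacam family 0.00229% and 0.000543% (350 and 46 reads), a smaller one.

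Set directly against each other, the N2B27 library was below the FBS/KSR library in 21 of 31 measured members and above it in 3, while 7.3% of all 14047 entries were lower and 10.7% higher. Prl7a1 (0 reads in N2B27, 2490 in FBS/KSR) was at least 409-fold lower, Ctsj (0 and 1725 reads) at least 283-fold, Psg29 (0 and 1418 reads) at least 233-fold, and Prl3d1 (2 and 534 reads) 132-fold lower (36.3 to 1089). The 3 members higher in N2B27 were Prl2c2 (2.17-fold, 1.82 to 2.59), Ceacam10 (8.12-fold, 4.92 to 13.99) and Ceacam16, at 16 reads against 1 (32.5-fold, 5.04 to 1361). The prolactin sum was 70.1 FPKM in N2B27 and 461 in FBS/KSR, 6.58-fold lower, and the cathepsin sum 0 and 110 FPKM. The conditions differed in feeders and in plating density as well as in medium, and their parts in this difference cannot be told apart. Markers of other cells moved with it: of 8 parietal endoderm markers 0 were higher and 5 lower in N2B27 (summed level 4637 FPKM in N2B27 and 18005 in FBS/KSR), of 8 visceral endoderm markers 0 and 5 (24.9 and 188 FPKM), and of 8 fibroblast markers 1 and 5 (64.1 and 243 FPKM), with none at 0 in either library; their part in the result was not tested.

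Cells sorted as OG+PDGFRAlow/-PECAM- differed from the unsorted N2B27 library in both directions: of 19 members measured 9 were higher and 5 lower, against 12.0% of all 14348 entries in each direction. Ctsll3 had 3627 reads in the sorted cells and 0 in the N2B27 library, at least 966-fold higher. Prl7a1 (228 and 0 reads) was at least 60.8-fold and Prl2c5 (103 and 0 reads) at least 27.4-fold higher, and Ceacam1 was 6.99-fold higher (5.74 to 8.59). Prl2c2 (0 reads in the sorted cells, 271 in N2B27) was at least 113-fold lower, and Prl2c3 (1 and 89 reads) 111-fold lower (19.5 to 4446). The prolactin sums, 52.1 FPKM in the sorted cells and 70.1 in N2B27, thus came from different genes. The Ceacam sum was 33.5 FPKM against 17.3, and without Ceacam1 the log2 difference was -1.40. Since the labels do not name the stage II medium of the sorted cells, sorting and medium cannot be told apart; in the FBS/KSR library Ctsll3 stood at 0.49 FPKM.

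In the reporter pair, 4 of 8 measured members were higher in pZscan4c-Em+ cells and 1 lower, against 8.37% and 5.15% of all 13413 entries. Prl8a1 was at 22.0 FPKM in pZscan4c-Em+ and 0.82 in pZscan4c-Em- (204 and 9 reads, 26.97-fold, 13.9 to 59.8). Psg16 was 6.07-fold higher (4.11 to 9.23), Ceacam19 5.33-fold (3.49 to 8.42) and Ceacam10 4.11-fold (2.06 to 8.92). Prl2c2 was lower, at 1 read against 21 (17.7-fold, 2.84 to 730). Apart from Prl8a1, no prolactin member passed 1 FPKM in pZscan4c-Em+, and no cathepsin had a read in either library. Mitochondrial genes took 7.37% of reads in pZscan4c-Em+ and 14.1% in pZscan4c-Em-. The 6 markers of 2-cell-like cells summed to 5936 FPKM in pZscan4c-Em+ and 180 in pZscan4c-Em-, with 6 of 6 higher and none at 0. This list is not independent of the sort, which selected on the Zscan4c promoter. It holds Zscan4c itself (1172 FPKM in pZscan4c-Em+ and 32.5 in pZscan4c-Em-) and the related Zscan4d (1717 and 57.0) and Zscan4f (2759 and 83.9). The part of mitochondrial reads or of 2-cell-like cells in the differences between members was not tested.

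At stage III day 4, the Opt. VPA library had 0 of 6 measured members higher and 3 lower than the control without it, against 5.77% and 3.28% of all 13571 entries. Ctsll3 was at 6.34 FPKM with Opt. VPA and 31.6 in the control (71 and 278 reads, 4.99-fold lower, 3.83 to 6.57). Prl2c3 was 5.31-fold lower (2.13 to 15.8) and Prl8a9, at 1 read against 8, was 10.2-fold lower (1.37 to 452). Prl2c2 stood at 8.54 FPKM with Opt. VPA and 14.7 in the control, which is under the 2-fold rule. The prolactin sum was 2.13-fold lower, close to the rule, and was -0.998 on the log2 scale, just under it, when summed as reads scaled to the library total. The cathepsin difference was Ctsll3 alone, since no other cathepsin had a read in either library. Marker lists moved both ways with Opt. VPA: 5 of 10 giant cell genes were higher and 0 lower (summed level 419 FPKM with Opt. VPA and 302 in the control), as were 5 of 10 labyrinth genes (220.5 and 82.0 FPKM) and 5 of 6 markers of 2-cell-like cells (107 and 14.4 FPKM), whereas of 8 visceral endoderm markers 0 were higher and 3 lower (14.3 and 36.7 FPKM). Among these, Apob was at 0 with Opt. VPA and Synb at 0 in the control. Their part in the result was not tested.

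From stage II to stage III day 6 the answer depended on the stage II library used. Against the N2B27 library, day 6 had 10 of 21 measured members higher and 5 lower, with 9.99% and 8.98% of all 14404 entries; against the FBS/KSR library it had 5 of 32 higher and 18 lower, with 6.05% and 2.01% of all 13876 entries. These comparisons share the day 6 library. Ctsll3 was higher than in either, at least 827-fold over N2B27 (3139 and 0 reads) and 504-fold over FBS/KSR (3139 and 10 reads, 274 to 1051). Prl2c5 was also higher than in both, at least 327-fold over N2B27 and 2.45-fold (2.24 to 2.68) over FBS/KSR. Prl2c2 was lower than in both, 22.85-fold (13.6 to 41.4) against N2B27 and 10.5-fold (6.25 to 19.1) against FBS/KSR. Psg18 was higher than in both and Prl2c3 lower than in both, and 20 members passed the rule in only 1 of the comparisons. The other 4 members called changed side. Prl3d1 was 48.2-fold higher than in N2B27 (13.1 to 403) but 2.73-fold lower than in FBS/KSR (2.24 to 3.35), and Prl2a1 49.0-fold higher (8.48 to 1967) but 4.39-fold lower (3.36 to 5.83). Prl7d1 was at least 5.80-fold higher than in N2B27 and 16.6-fold lower (10.8 to 26.7) than in FBS/KSR, and Ctsj at least 5.54-fold higher and 51.2-fold lower (33.4 to 82.9). Psg29 was 32.7-fold lower (22.4 to 49.9) than in FBS/KSR, with 27 reads at day 6 and 0 in N2B27. The cathepsin sum, 249.8 FPKM at day 6 and 109.9 in FBS/KSR, was 2.27-fold higher, but without Ctsll3 it was -4.95 on the log2 scale, and the Psg difference of -1.11 was 0.02 without Psg29.

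**Figure D4:**
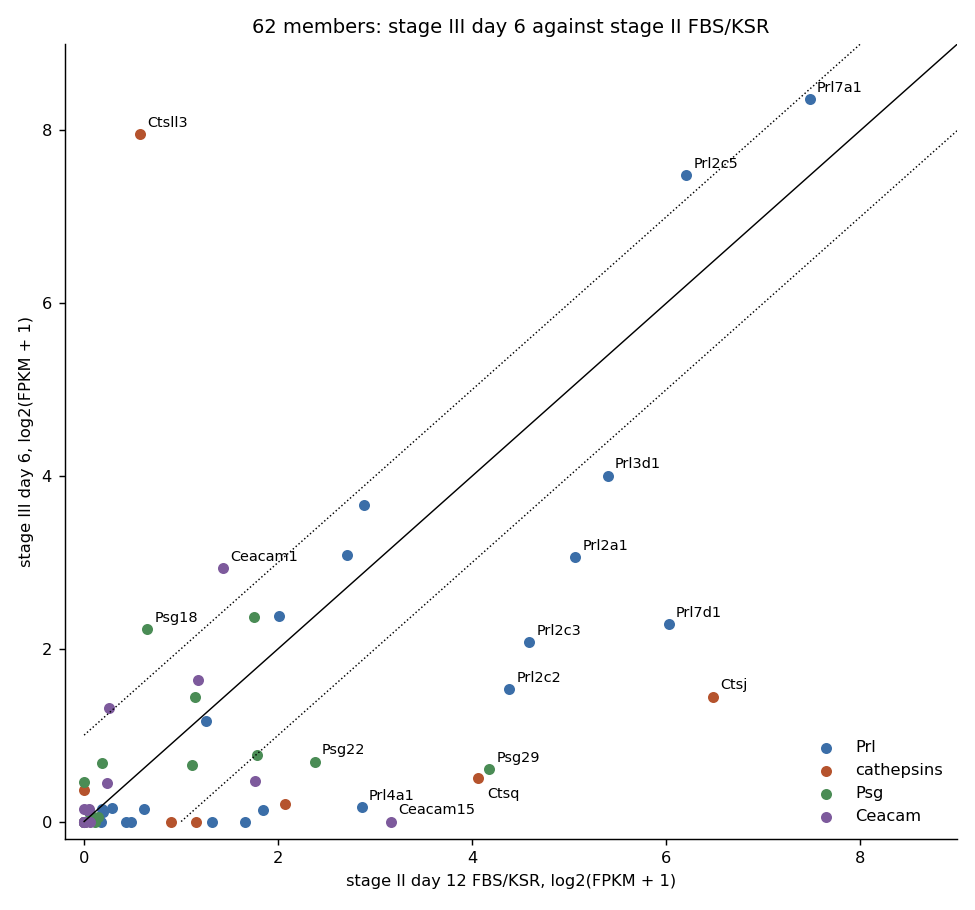
Level of the 62 members at stage III day 6 (vertical axis) against the stage II day 12 FBS/KSR library (horizontal axis), both as log2(FPKM + 1), coloured by family; the solid line marks equal levels and the dotted lines the 2-fold limits. Ctsll3 lies far above the lines, Prl7a1 within them, and 18 members below them, Ctsj and Prl7d1 among them.

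Between stage III days 6 and 15 the hormones were high at both times while Ctsll3 fell. At day 15, of 20 members measured 4 were higher and 4 lower than at day 6, against 6.23% and 5.02% of all 14247 entries. Ctsll3 was 25.7-fold lower at day 15 (91 reads at day 15, 3139 at day 6; 20.9 to 32.1). Prl2c3 was 6.29-fold (4.09 to 10.0), Ctsj 3.89-fold (2.34 to 6.73), Prl2c2 3.75-fold (2.04 to 7.29) and Prl2a1 2.75-fold (2.01 to 3.78) higher. Prl3d2, Prl3d3 and Prl8a9 were between 2.26-fold and 3.45-fold lower. The prolactin sums were 631 FPKM at day 15 and 562 at day 6. The cathepsin sum was 14.1-fold lower at day 15, and without Ctsll3 it was 1.34 higher on the log2 scale.

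At day 21 the prolactin, cathepsin and Psg sums were lower than at day 15, while the Ceacam sum was 13.01 FPKM at day 21 and 8.28 at day 15, from 161 and 135 reads (0.00197% and 0.00190% of their libraries). Of 20 members measured, 1 was higher and 13 lower, against 1.72% and 7.5% of all 13744 entries. Prl7a1 was 11.1-fold lower (9.79 to 12.6), Prl2c5 8.70-fold (6.99 to 10.9), Ctsll3 7.47-fold (4.23 to 14.2), Prl3d1 6.97-fold (3.94 to 13.3) and Prl2c3 6.67-fold lower (4.18 to 11.2). The prolactin sum was 72.7 FPKM at day 21 and 631 at day 15, 8.69-fold lower. Ceacam10 was the member that was higher, at 9.86 FPKM on day 21 and 3.23 on day 15 (3.05-fold, 1.92 to 5.02). Markers of other cells were lower too: 6 of 8 fibroblast markers (summed level 396 FPKM at day 21 and 896 at day 15) and 5 of 8 parietal endoderm markers (4539 and 8975 FPKM), with none higher and none at 0; their part in the result was not tested.

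In the CiPSC line 0 of 15 measured members were higher and 10 lower than at day 21, against 4.88% and 15.4% of all 13486 entries; 9 of the 10 had no read in the CiPSC line. Prl7a1 was at least 134-fold and Prl2c5 at least 43.1-fold lower. Ceacam10 was the other, at 3.17 FPKM in the CiPSC line and 9.86 at day 21 (3.11-fold lower, 2.10 to 4.69). All 8 fibroblast markers were lower in the CiPSC line as well (summed level 3.99 FPKM in the CiPSC line, where Dcn and Lum were at 0, and 396 at day 21), and so were all 8 parietal endoderm markers (262 and 4539 FPKM, with none at 0); their part was not tested. Against ESC, the CiPSC line had 0 members higher and 0 lower of the 4 at 1 FPKM or more, with 1.79% and 4.77% of all 12821 entries beyond the rule. These 4 were Prl8a1 (1.37 FPKM in the CiPSC line, 3.15 in ESC), Psg16 (1.43 and 2.30), Ceacam10 (3.17 and 2.08) and Ceacam20 (0.87 and 1.12). The interval of the CiPSC over ESC ratio was 0.239 to 0.768 for Prl8a1 and 0.866 to 2.77 for Ceacam10, so Prl8a1 was lower in the CiPSC line beyond counting error.

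**Figure D5:**
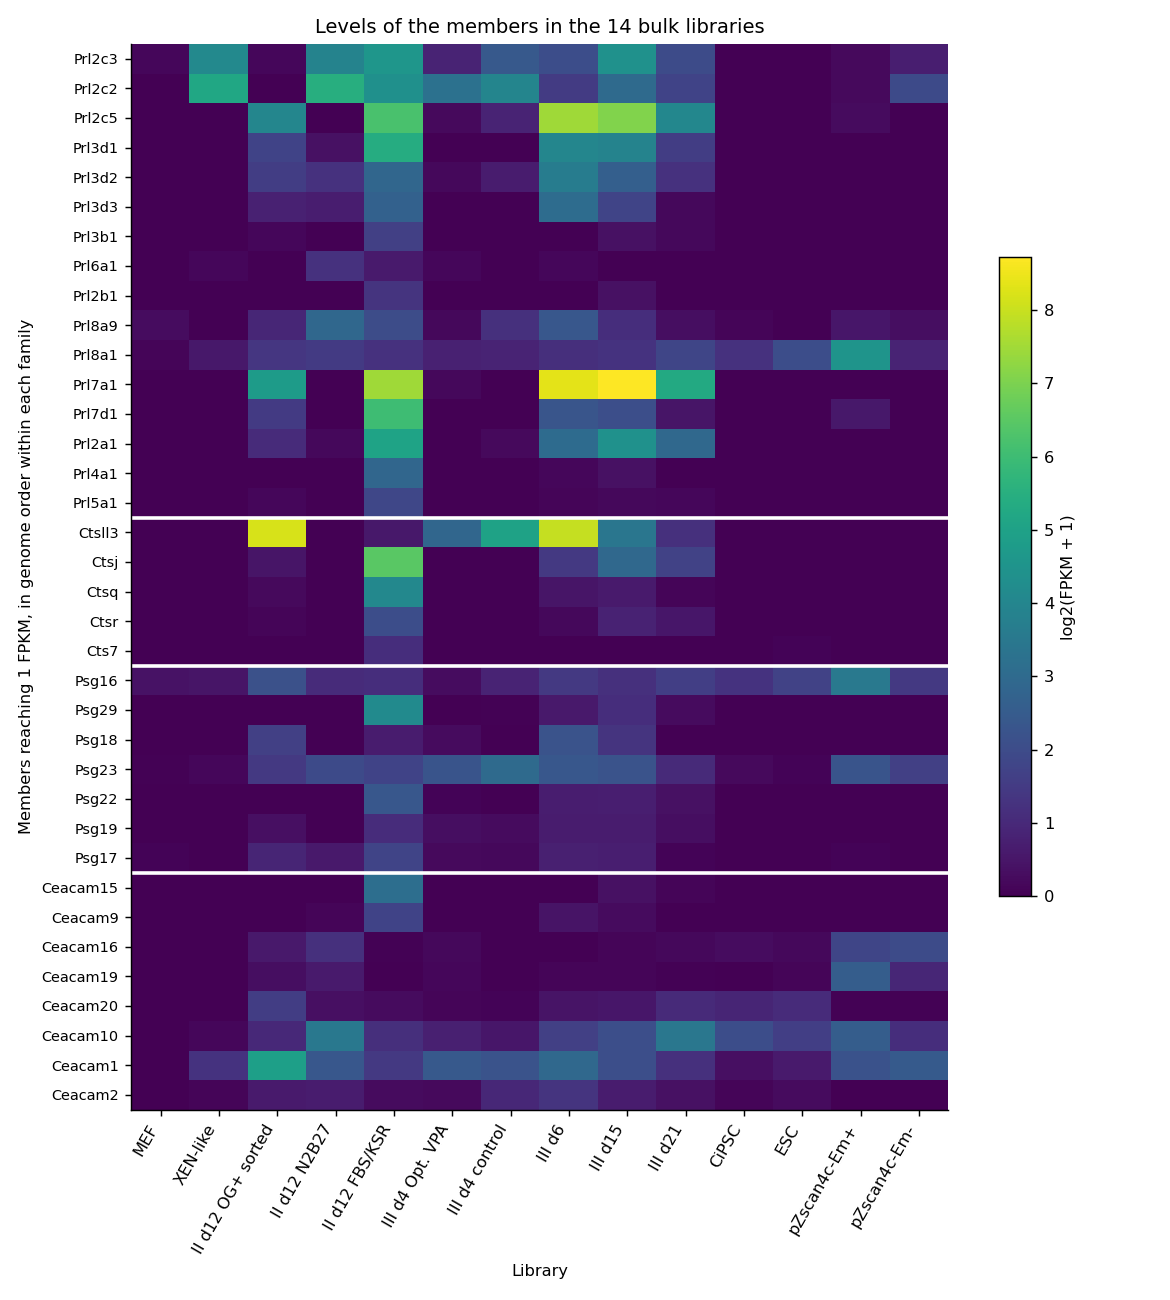
Level of each member that reached 1 FPKM in any library, as log2(FPKM + 1), with rows grouped by family and columns by library. Members under 1 FPKM in every library are not drawn. The FBS/KSR column has the most members above 1 FPKM (29), and the MEF column has none.

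Markers of the trophoblast layers were read beside the families. Elf5, a transcription factor of trophoblast stem cells, was highest in the libraries where Ctsll3 was, at 45.6 FPKM in the OG+PDGFRAlow/-PECAM- sort and 49.2 at day 6, with 2.79 in the N2B27 library and 9.37 in the FBS/KSR library. Cdx2, another such factor, was at 187 FPKM in the sort, 43.2 in N2B27, 3.38 in FBS/KSR and 22.3 at day 6. Hand1, the factor of giant cell formation, was at 73.2 FPKM in the sort, 13.6 in N2B27, 78.1 in FBS/KSR, 133 at day 6, 58.1 at day 15 and 5.69 at day 21. The giant cell list as a whole did not run with the prolactin sum in every library. It summed to 509 FPKM in FBS/KSR, 799 at day 6 and 962 in the sort. In pZscan4c-Em- it summed to 519 FPKM, where Hand1 was at 2.64 and the prolactin sum at 4.65. The spongiotrophoblast gene Tpbpa reached 4.05 FPKM in the FBS/KSR library and 0.61 at day 15, and its copy Tpbpb reached only 0.092. Of the 10 labyrinth and syncytiotrophoblast genes listed, Gcm1 and Synb reached only 4.27 and 2.75 FPKM. By contrast, Cebpa reached 79.1 in the sort and Esx1 133 in XEN-like cells. Of these 10, 6 were higher and 1 lower in the sort than in N2B27, against 12.0% of all entries in each direction. Their median log2 difference was 2.03 over the 9 measured. At day 6, 6 were higher and 2 lower than in N2B27, against 9.99% and 8.98% of all entries. Of the 10 trophoblast stem cell genes listed, 8 were higher and 1 lower in the sort than in N2B27 (12.0% of all entries in each direction). Their median log2 difference was 2.58 (-0.06 over all entries). Among the 10 giant cell genes, 6 were lower at day 21 than at day 15 (7.5% of all entries) and 0 higher (1.72%). Their median log2 difference was -1.48 (-0.07 over all entries). In FBS/KSR, 9 stem cell genes and 8 giant cell genes were higher than in XEN-like cells (16.1% of all entries) and 0 lower (10.3%). In N2B27, 6 stem cell genes were higher than in XEN-like cells and 1 lower, and 7 giant cell genes higher and 0 lower. The shares of all entries there were 17.7% and 8.56%. Against FBS/KSR, N2B27 had 2 stem cell genes higher and 5 lower, and 0 giant cell genes higher and 3 lower. Of all entries, 10.7% were higher and 7.3% lower. How far the number of trophoblast-like cells in each library bears on the family levels was not tested.

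Partners of these families were measured from lists. Of 9 genes of the prolactin receptor axis, 8 were measured at day 6 against N2B27, of which 3 were higher (9.99% of all entries) and 0 lower (8.98%). Against FBS/KSR 7 were measured, with 1 higher (6.05%) and 1 lower (2.01%). The prolactin receptor gene Prlr did not pass 4.72 FPKM, its level at day 6, where prolactin (Prl) itself stood at 0.71. Of 14 other cathepsins and cystatins, which inhibit them, 13 were measured at day 6 against FBS/KSR, with 4 higher and 0 lower. In the sort against N2B27, 1 of 13 was higher and 4 lower (12.0% of all entries in each direction), and in the CiPSC line against day 21, 9 of 11 were lower (15.4%) and 0 higher (4.88%). Ctsl, the cathepsin L gene itself, was present throughout: it was at 183 FPKM in MEF, 576 in XEN-like cells, 757 in N2B27, 1498 in FBS/KSR, 1327 at day 6 and 105 in the CiPSC line. Of 4 genes for proteins that Psg proteins bind or act on, Cd9, Tgfb1, Cd151 and Itgb3, 1 was higher in the sort than in N2B27 and 0 lower (12.0% of all entries in each direction). It was Itgb3, at 6.43 FPKM in the sort and 2.14 in N2B27. Cd9, a surface partner of Psg17, ran from 95.05 FPKM in MEF to 718 in the sort. In N2B27 Cd9 was at 363 FPKM, so its difference from the sort was under the 2-fold rule.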

How the data were processed

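Of the series' 30 samples, the 14 bulk RNA-seq libraries were used; 12 single-cell and 4 bisulfite samples were not used here. The authors deposited 1 table of FPKM values per gene entry, made from total RNA with a NEBNext Ultra library kit, per the labels' protocols. The build mm10 appears in the submitters' processing notes; the aligner, the counter, strand handling and the treatment of reads that align to several copies are in none of the sources used here. Reads were recovered from the deposited FPKM: for 23178 entries above 0 in at least 2 libraries the ratios between libraries gave whole reads and whole lengths (within 0.001 base), and the 2231 entries above 0 in 1 library, 9 members among them, have no recovered reads and enter no sum of reads. No test was run, since each group had 1 library. Folds are ratios of FPKM with exact binomial intervals (scipy 1.17.1); calls used log2(FPKM + 1), with a minimum of 1 FPKM. A member was described in every library if it reached 20 FPKM. Alternatives were a pseudocount of 0.1, no minimum or 5 FPKM, other scalings, reads scaled to library totals, and sums without the highest member. Upstream windows were aligned with Biopython 1.88. The comparison code was tested on simulated data. Pandas 2.3.3, numpy 2.4.6, matplotlib 3.10.9 and Python 3.11.15 were used. Members, lists and comparisons were chosen with earlier results of these data known.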

Additional observations from a re-analysis of the deposited data

How the results depend on the processing

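With 1 library per group, no alternative can show the spread between cultures, and depth limits members under 1 FPKM, where few reads carry most values. Leaving out the minimum could not change a count, because 2-fold on log2(FPKM + 1) already needs 1 FPKM in the higher library. Under median-of-ratios scaling no count changed beyond 1.5 times and no family sum crossed the 2-fold rule. That scaling moved the median of all entries by -0.27 (log2) between XEN-like cells and MEF and -0.12 between Opt. VPA and control. It moved it by 0.20 between the CiPSC line and day 21 and 0.15 between the CiPSC line and ESC. No paired analysis was possible because each group has 1 library. The cause of the changes that follow was not tested, except that leaving out members or raising the minimum removes genes by construction.

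With a minimum of 5 FPKM, the members higher were 2 in N2B27 over XEN-like cells, 12 in FBS/KSR over XEN-like cells, 4 in the OG+PDGFRAlow/-PECAM- sort over N2B27 and 3 in day 6 over FBS/KSR. The members lower were 12 in N2B27 against FBS/KSR, 0 in pZscan4c-Em+ against pZscan4c-Em-, 1 in Opt. VPA against control, 3 in day 6 against N2B27, 10 in day 6 against FBS/KSR and 4 in the CiPSC line against day 21. With a pseudocount of 0.1, 6 were higher in N2B27 over FBS/KSR, 2 were higher at day 21 over day 15 and 1 was lower in the CiPSC line than in ESC; there the prolactin sum differed by -1.06, and the Psg sum of the CiPSC line over day 21 by -1.34. With FBS/KSR in place of N2B27 as the base of day 6, 5 members were higher and 18 lower, and the log2 differences were 0.29 for prolactin and -1.11 for Psg, which was higher against N2B27.

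Without Ctsll3 the cathepsin differences were 0.88 (sort over N2B27), 0.00 (Opt. VPA over control), -4.95 (day 6 over FBS/KSR) and 1.34 (day 15 over day 6). Without Prl7a1 the prolactin sum of the sort over N2B27 was -1.41, and without Psg29 the Psg sum of day 6 over FBS/KSR was 0.022. Without Ceacam1 the Ceacam differences were 0.27 (XEN-like over MEF), -1.40 (sort over N2B27), 1.14 (pZscan4c-Em+ over pZscan4c-Em-), -1.32 (day 6 over N2B27), -1.21 (day 6 over FBS/KSR) and 1.09 (day 21 over day 15). With the trophoblast Ceacam genes alone they were 0.00 (XEN-like over MEF), 0.13 (N2B27 over XEN-like), -3.37 (N2B27 over FBS/KSR), -2.93 (day 6 over FBS/KSR) and -0.12 (CiPSC over day 21). Summed as reads scaled to the library total, Ceacam was 1.78 in the sort over N2B27, prolactin -0.998 in Opt. VPA over control, and Psg -1.24 in the CiPSC line over day 21, which TPM scaling put at -1.16.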

Other observations

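Over the 14 libraries, the genes whose log2(FPKM + 1) ran most closely with that of the prolactin sum, among 10113 named entries at 10 FPKM or more in any library, were Tm2d1 (Pearson r = 0.94), Gramd1c (0.90), Napg (0.90), Stx3 (0.89) and Ddb2 (0.89). The values are a description over libraries that differ in depth and cell type, with no test. Stx3, a syntaxin of membrane fusion, was at 73.6 FPKM at day 6, 63.7 in the FBS/KSR library, 27.5 in the N2B27 library and 3.23 in MEF. Gramd1c was at 14.5 FPKM at day 6, 8.87 in the FBS/KSR library, 3.45 in the N2B27 library and 0.49 in MEF. Tm2d1 had the narrower range, between 22.7 FPKM in the CiPSC line and 49.5 in the FBS/KSR library.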
